A study of Mus musculus with 12 samples.

Results

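A group of 9 genes of bile acid synthesis and of the transport of bile acids across the hepatocyte membrane was followed on all arrays of the study, chosen as every probe set whose annotation names one of these 9 symbols alone. They are 9 of 18193 genes so named, and they are measured by 17 of 34945 probe sets. Bile acids are made from cholesterol in hepatocytes. The classical pathway starts with Cyp7a1, its rate-limiting hydroxylase, and Cyp8b1, the sterol hydroxylase that sets the share of cholic acid, while Cyp27a1, a mitochondrial sterol hydroxylase, opens the alternative pathway and oxidises the side chain in both. Bile acids returning in portal blood are taken up by the sodium-dependent carrier Slc10a1 and by the organic anion carriers Slco1a1, Slco1a4 and Slco1b2, and are exported into bile by the pump Abcb11 and, as conjugates, by Abcc2.

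RNA came from gonadal white adipose tissue (WAT), skeletal muscle (M. vastus lateralis) and liver of 12 week old female GHSR KO mice on a C57bl/6 background, which lack the ghrelin receptor in every group, so no group shows the level in mice that carry it. Mice had an intraperitoneal injection of saline or of 20 nmol/kg unacylated ghrelin (UAG), the peptide without the acyl group that the receptor needs, and tissues were taken 6 h later. There are 12 arrays in 6 groups of 2, each group from 2 mice, and the labels do not say which arrays of different tissues came from the same mouse. Levels are the authors' normalized intensities, and 30 is the intensity threshold that the study's methods name. A gene is given by its lead probe set, the one with the highest mean log2 value over the 12 arrays. For Slco1b2 and Slc10a1 another probe set was brighter in liver, and its values are given too. Liver identity was clear from 10 hepatocyte markers, whose summed intensity was 116560 to 158600 on liver arrays and 199 to 343 on the 8 other arrays. Arrays of a tissue had Pearson correlations of 0.925 to 0.962 over the probe sets, which do not count as replicates.

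The promoters of 8 of the 9 genes, in 9 windows of 300 bases from 250 before to 50 after the start, were matched in RefSeq (GRCm38.p6), and Cyp7a1 was not matched. The windows of 5 genes are printed because they belong to the transporter with the largest UAG difference (Slco1a1), to the member expressed outside liver (Cyp27a1), and, of the members whose window held a motif of a liver transcription factor, to Cyp8b1, Abcb11 and Slco1b2. Each is given 5′ to 3′ along the gene's strand, and capitals mark the motif matches. Cyp8b1 lies at chr9:121916256-121916555 on the minus strand, Abcb11 at chr2:69342567-69342866 on the minus strand, Slco1b2 at chr6:141629268-141629567 on the plus strand, Slco1a1 at chr6:141946913-141947212 on the minus strand, and Cyp27a1 at chr1:74713285-74713584 on the plus strand.
Cyp8b1: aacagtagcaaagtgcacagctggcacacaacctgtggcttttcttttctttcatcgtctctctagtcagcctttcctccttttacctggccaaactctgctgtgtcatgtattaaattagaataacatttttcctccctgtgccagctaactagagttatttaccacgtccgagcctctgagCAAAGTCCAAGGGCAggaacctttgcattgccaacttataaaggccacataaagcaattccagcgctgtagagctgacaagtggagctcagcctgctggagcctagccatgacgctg
Abcb11: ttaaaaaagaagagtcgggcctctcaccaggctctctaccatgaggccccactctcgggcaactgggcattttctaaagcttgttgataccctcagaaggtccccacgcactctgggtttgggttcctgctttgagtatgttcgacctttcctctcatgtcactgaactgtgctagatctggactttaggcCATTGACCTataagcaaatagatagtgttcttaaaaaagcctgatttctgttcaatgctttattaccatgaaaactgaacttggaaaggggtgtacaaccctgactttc
Slco1b2: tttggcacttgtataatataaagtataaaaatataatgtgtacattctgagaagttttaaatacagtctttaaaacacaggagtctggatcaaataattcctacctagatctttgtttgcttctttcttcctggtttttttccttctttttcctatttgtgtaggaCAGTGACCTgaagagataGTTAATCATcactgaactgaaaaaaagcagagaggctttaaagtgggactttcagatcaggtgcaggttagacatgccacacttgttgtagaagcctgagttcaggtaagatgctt
Slco1a1: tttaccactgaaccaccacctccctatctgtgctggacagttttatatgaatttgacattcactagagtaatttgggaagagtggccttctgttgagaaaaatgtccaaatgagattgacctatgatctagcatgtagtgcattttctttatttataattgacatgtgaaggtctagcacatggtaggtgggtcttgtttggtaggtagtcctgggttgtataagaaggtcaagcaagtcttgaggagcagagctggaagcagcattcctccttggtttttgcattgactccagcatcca
Cyp27a1: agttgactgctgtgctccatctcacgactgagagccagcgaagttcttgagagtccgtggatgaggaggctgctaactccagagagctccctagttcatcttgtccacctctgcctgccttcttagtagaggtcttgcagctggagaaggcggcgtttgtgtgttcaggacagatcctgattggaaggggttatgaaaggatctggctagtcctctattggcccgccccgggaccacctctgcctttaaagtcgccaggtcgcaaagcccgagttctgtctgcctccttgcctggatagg

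Both strands were searched, and matches may overlap. In Cyp8b1 the letters CAAAGTCCA, a form of the HNF4A site, begin 67 bases before the start and overlap CAAGGNCA, the NR5A2 site, which begins 60 bases before it. In Abcb11, AGGTCANTG, part of the inverted repeat that binds the bile acid receptor FXR, matched on the opposite strand at 59 bases before the start, and in Slco1b2 it matched at 84 bases before it. Slco1b2 also held GTTAATNAT, part of an HNF1 site, at 66 bases before the start. The C/EBP motif TTGCNNAA occurred in 1 of the 2 windows of Slc10a1. The other windows, those of Slco1a1, Slco1a4, Abcc2 and Cyp27a1 among them, held none of these letters. Of all 32851 promoter windows of this length, 0.475% hold the HNF4A letters, 6.71% the NR5A2 letters, 1.18% the FXR letters, 0.801% the HNF1 letters and 10.8% the C/EBP letters. Of the 9 members' windows, 1 held the HNF4A letters, 1 the NR5A2, 2 the FXR, 1 the HNF1 and 1 the C/EBP letters. These are matches of letters, and binding was not measured here.

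The first comparison asked in which tissues the genes are expressed. All 9 genes were higher in liver than in WAT and than in muscle, and 8 of the 9 were near or below the intensity of 30 outside liver (limma on all 12 arrays, adjusted p under 0.05 for 9 of 9 in each comparison). Of all 45037 probe sets, 17.3% were called higher in liver than in WAT and 18.7% higher in liver than in muscle. The median log2 difference of the 9 genes was 6.95 against WAT and 7.24 against muscle, beside 0.029 and 0.020 over all probe sets. Every probe set entered this comparison, whatever its level, so values below 30 bear on the size of the differences. With a floor and filter of 30, the difference against WAT fell from 9.78 to 7.46 for Slco1b2 and from 5.87 to 4.61 for Slco1a1. All 9 genes were still called. In bulk tissue, fewer cells of a type and less RNA per cell cannot be told apart.

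Outside liver, 62 of 64 values of the 8 genes other than Cyp27a1 lay below 30. The exceptions were Cyp8b1 on a saline and a UAG array of muscle, at 31.7 and 34.8. The lowest liver value of these genes was 326, that of Slco1a1 on UAG replicate 2, so liver and other arrays did not overlap for any of them.

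**Figure D1:**
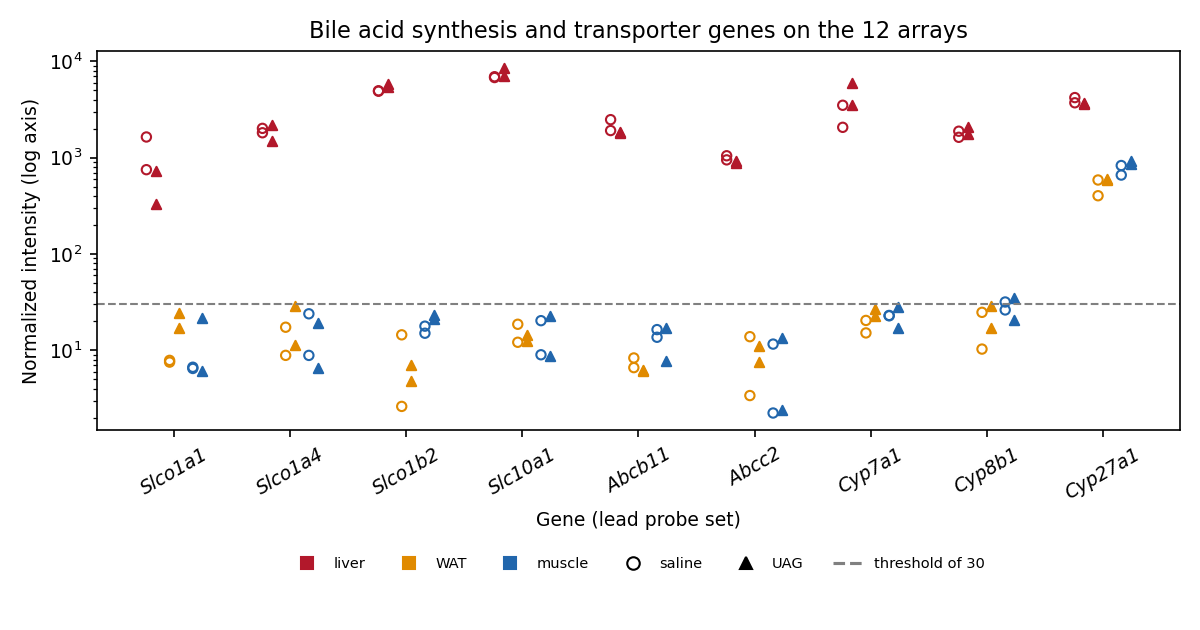
Normalized intensity (log axis) of the lead probe set of each gene on the 12 arrays, with liver in red, WAT in orange and muscle in blue, open circles for saline, triangles for UAG and a dashed line at 30. Liver points of 8 genes lie at 326 or above and their other points at 34.8 or below, while Cyp27a1 lies between 402 and 915 in WAT and muscle.

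Among the uptake carriers, Slc10a1, the main sodium-dependent bile acid carrier, had 6913 and 6782 on saline and 7054.5 and 8518 on UAG arrays of liver. Its values on the other 8 arrays were 8.76 to 22.7, which puts liver at least 243-fold higher, counted against 30 (adjusted p = 2.78e-10 against WAT and 2.29e-10 against muscle, limma). Slco1b2, the mouse relative of the human liver-type anion carriers, was at least 176-fold higher in liver, and its other arrays reached 23.3 at most. Slco1a4, a carrier also known from brain capillaries, was at least 61.9-fold higher, and Slco1a1 at least 24.4-fold. The exporters kept to the same pattern, with at least 66.5-fold for Abcb11, the bile salt export pump, and at least 31.6-fold for Abcc2, the conjugate exporter. Cyp7a1 was at least 117-fold higher in liver. Cyp8b1 was at least 60.9-fold higher than in WAT, and in muscle, where its arrays lay on both sides of 30, liver was 6.04 higher on the log2 scale (standard error 0.28, adjusted p = 3.64e-09, limma). Slco1b2, Slco1a4 and Slco1a1 lie beside each other on chromosome 6, where Slco1a6 and Slco1a5 follow, and the lead probe sets of both neighbours had every liver value below 30.

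Cyp27a1 was the exception among the 9. It had 4200.2 and 3709 on saline and 3619 and 3708 on UAG arrays of liver. In WAT it had 586 and 402 on saline and 596 and 584 on UAG arrays, and in muscle 828 and 659 on saline and 915 and 864 on UAG arrays. The tissues did not overlap, with liver highest, muscle next and WAT lowest. Summed adipocyte markers were at 10056 to 17510 on muscle arrays, beside 24588 to 33657 in WAT. The summed brown fat markers Ucp1, Cidea and Cox8b were at 10961 to 17876 in muscle and 1745 to 17682 in WAT. The part of cell content in the Cyp27a1 levels was not tested. Liver was higher than WAT by 2.83 on the log2 scale (standard error 0.13, adjusted p = 3e-09, limma) and higher than muscle by 2.23 (0.13, adjusted p = 2.25e-08, limma). A second probe set named for Cyp27a1 had values of 1.62 to 14.0 on the 4 liver arrays, below 30, and was the 1 of 17 probe sets for which liver did not stand above the other tissues.

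The second comparison asked what UAG did to these genes in liver 6 h after injection. By the rule of the methods, a ratio of the mean intensities of at least 2 or at most 0.5, Slco1a1 was past the limit, at 0.438 of its saline level, and the other 8 were not. At this rule 0.346% of the 25160 liver probe sets of sufficient intensity were lower and 0.425% higher. limma on the 4 liver arrays called none of the 9 (adjusted p = 0.9998 for each of them), and 1 of 25160 probe sets in all, which is 0.00397%. At an unadjusted p under 0.05 it had 2 of the 9, Slco1a1 and Cyp7a1, and 3.65% of all. The log2 difference, UAG minus saline, was positive for 4 genes and negative for 5, with a median of -0.078, beside 0.0011 over all probe sets tested. Every one of the 9 passed the filter on intensity in liver.

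Slco1a1, an uptake carrier for bile acids, steroids and other anions whose level in mouse liver is higher in males than in females, had 1638 and 749.7 on the saline arrays and 718 and 326 on the UAG arrays. Both UAG arrays were below both saline arrays, but saline replicate 2 and UAG replicate 1 lay close together. Such a gap, with UAG below saline, was found for 15.2% of the liver probe sets tested. Its second probe set had 1081 and 543 on saline and 441 and 251 on UAG arrays, in the same order and with a ratio of 0.426. The log2 difference was -1.19 (standard error 0.40, 95% confidence interval -2.12 to -0.27, unadjusted p = 0.0175, adjusted p = 0.9998, limma), the 26th lowest of 25160. Saline replicate 1 was 2.18 times replicate 2, and UAG replicate 1 was 2.20 times replicate 2, so the spread within each group was about as large as the difference between the groups. Without saline replicate 1 the ratio was 0.697, and without UAG replicate 2 it was 0.602, both short of the 2-fold rule, while it was 0.274 without UAG replicate 1.

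Cyp7a1, the rate-limiting enzyme, whose transcript rises and falls over the day, had 3495 and 2063 on saline and 3478 and 5992 on UAG arrays. UAG replicate 2 was the highest of the 4 and saline replicate 2 the lowest, and saline replicate 1 and UAG replicate 1 were nearly equal, so the groups overlapped. The ratio of means was 1.70 and the log2 difference 0.77 (standard error 0.29, 95% confidence interval 0.097 to 1.43, unadjusted p = 0.0295, adjusted p = 0.9998, limma). Its second probe set had 1506.5 and 1142 on saline and 1554 and 2304 on UAG arrays, with a log2 difference of 0.53 (0.20). On this probe set the groups did not overlap, by a small gap, as for 15.3% of the liver probe sets with UAG above saline. The ratio was 2.295 without saline replicate 1 and 2.16 without UAG replicate 1, past the 2-fold rule, and 1.25 without UAG replicate 2.

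**Figure D2:**
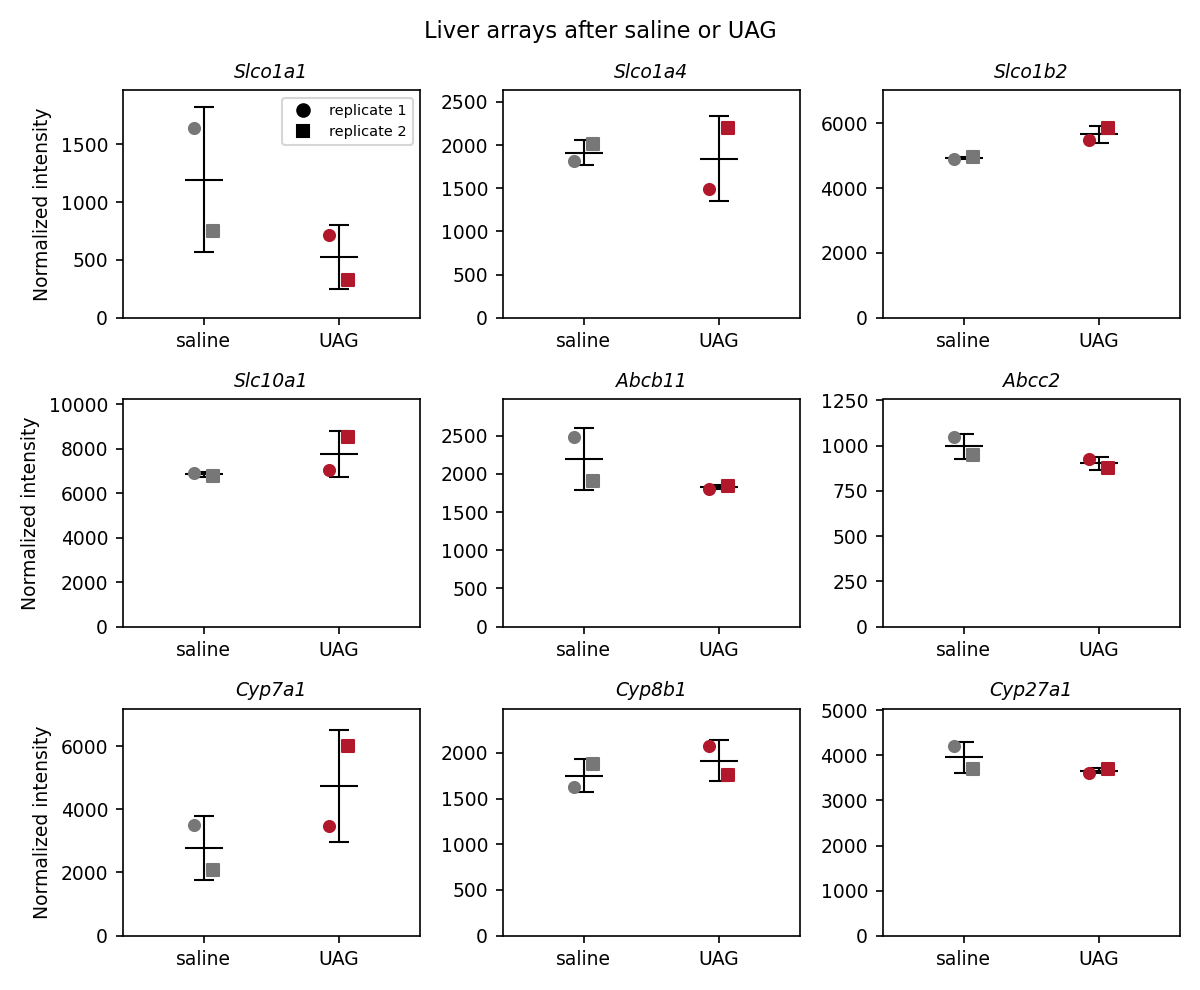
Normalized intensity of each gene on the liver arrays after saline (grey) and UAG (red), with replicate 1 as a circle, replicate 2 as a square and bars for the mean and SD of 2 arrays. The widest spreads are those of Slco1a1, from 326 to 1638, and Cyp7a1, from 2063 to 5992.

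The 7 other genes varied less over the 4 liver arrays. The highest liver array was 5.02 times the lowest for Slco1a1 and 2.90 times for Cyp7a1, ratios exceeded by 2.38% and 7.54% of the probe sets tested. For the other genes it was 1.16 to 1.47 times, beside a median of 1.40 over all probe sets tested. Cyp8b1 had 1626 and 1880.1 on saline and 2072 and 1761 on UAG arrays, which overlapped. Its 95% confidence interval for the log2 difference ran from -0.17 to 0.43 (limma). Cyp27a1 had an interval of -0.41 to 0.19, and its UAG arrays, at 3619 and 3708, lay just below its saline arrays.

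Of the exporters, Abcb11 had 2478 and 1909.7 on saline and 1808 and 1848 on UAG arrays, and its UAG arrays were below its saline arrays by a small margin. Its log2 difference was -0.25 (95% confidence interval -0.58 to 0.073, unadjusted p = 0.113, adjusted p = 0.9998, limma). Abcc2 had 1045.5 and 947.6 on saline and 928 and 877 on UAG arrays, again not overlapping. Its log2 difference was -0.14 (-0.40 to 0.11). Among the carriers, Slco1a4 had 1811 and 2012 on saline and 1493 and 2193 on UAG arrays, so both ends of its range were UAG arrays. Its log2 difference was -0.078 (-0.48 to 0.33), and it was 0.20 without UAG replicate 1. Slc10a1 had both UAG arrays above both saline arrays on its lead probe set, with a log2 difference of 0.18 (-0.19 to 0.55). With quantiles equalised again, that difference was 0.032 within the liver arrays and 0.027 over the 12 arrays. Its other probe set, brighter in liver, had 7731 and 7319 on saline and 7659 and 10167 on UAG arrays and a difference of 0.23 (-0.19 to 0.65), and there the groups overlapped. In all, UAG arrays lay below saline arrays for 4 of the 9 genes and above for 2, beside 15.2% and 15.3% of the probe sets tested. The 2 were Slc10a1 and Slco1b2, and with the probe set that is brightest in liver for each gene the counts were 4 below and 0 above.

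The 5 probe sets of Slco1b2 did not move one way. The lead probe set had 4890.5 and 4942 on saline and 5468 and 5840.2 on UAG arrays, with UAG above saline and a log2 difference of 0.20 (standard error 0.14). That difference was 0.12 with quantiles equalised again within the liver arrays and 0.11 over the 12 arrays. Another, brighter on each liver array, had 5689 and 5957 on saline and 5909 and 6564 on UAG arrays, which overlapped, and a difference of 0.097 (0.15). The other 3 had differences of -0.33 (0.13), -0.64 (0.40) and -0.60 (0.27). The first of these had 2849 and 3155 on saline and 2177.5 and 2603 on UAG arrays, with UAG below saline. The other 2 were dim in liver, at 65.4 to 203, with values of 65.4 and 67.9 on UAG replicate 1. The direction for Slco1b2 therefore depends on the probe set, and it was -0.25 on the log2 scale with the mean of all 5. The paired probe sets of Slco1a1, Slc10a1 and Cyp7a1 had the same sign within each gene.

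**Figure D3:**
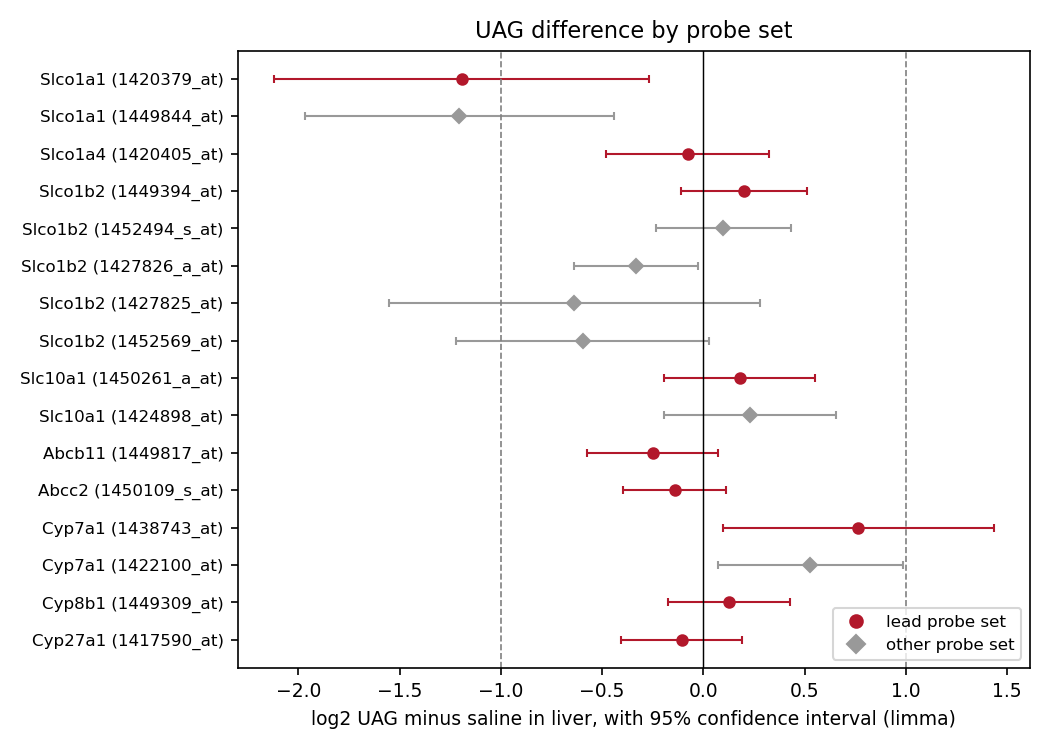
Log2 difference, UAG minus saline, in liver for the 16 probe sets of the 9 genes that were tested, with 95% confidence intervals from limma, red for the lead probe set of a gene and grey for the others, and dashed lines at 2-fold. Both Slco1a1 probe sets lie beyond 2-fold, at -1.19 and -1.20, and the 5 of Slco1b2 lie on both sides of 0.

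RNA quality and cell content were read beside these differences. Signal at the 3′ end of Actb over that at its 5′ end is higher where RNA is less intact. It came to 1.70 and 1.78 on saline and 1.94 and 2.36 on UAG arrays of liver, higher on both UAG arrays. The same measure for Gapdh was 0.668 to 0.714 on saline and 0.695 to 0.723 on UAG arrays. The summed intensity of the 10 hepatocyte markers was 116560 and 120430 on saline and 117200 and 158600 on UAG arrays, and 10 of 10 had a positive log2 difference with a median of 0.20, none of them called by limma. UAG replicate 2 was the highest liver array for that sum, for the Actb ratio and for Cyp7a1, Slc10a1, Slco1b2 and Slco1a4. It was the lowest for Slco1a1 and Abcc2, and neither for Abcb11, Cyp8b1 and Cyp27a1. The summed markers of Kupffer cells were at 3952 and 4086 on saline and 3861 and 4093 on UAG arrays, and those of cholangiocytes at 222 and 183 on saline and 172 and 164 on UAG arrays. Of the cholangiocyte markers, Krt19, Krt7 and Cftr lay below the intensity of 30 on every liver array. Differences were positive for 2 of 5 Kupffer cell, 0 of 2 cholangiocyte, 4 of 5 endothelial and 3 of 5 stellate cell markers tested. The part of RNA quality and cell content in the differences was not tested.

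In WAT and muscle, UAG could be followed for Cyp27a1 only, since the other 8 genes did not reach a mean intensity of 30 there. Its log2 difference was 0.28 in WAT (95% confidence interval -0.24 to 0.80, unadjusted p = 0.234, adjusted p = 0.826, limma) and 0.27 in muscle (-0.16 to 0.69, unadjusted p = 0.190, adjusted p = 0.9999, limma). Neither reached 2-fold, a rule met by 1.53% of the WAT probe sets tested as lower and 0.443% as higher, and by 0.291% and 0.239% of those in muscle. The groups overlapped in WAT, where 22.0% of probe sets had UAG arrays above and 15.3% below saline arrays. In muscle both UAG arrays were above both saline arrays, as for 11.4% of the muscle probe sets tested, while 11.3% had them below. limma called 0 of 25307 probe sets in WAT and 0 of 25105 in muscle, which is 0% in each, and 6.81% and 1.86% had an unadjusted p under 0.05. The difference of the UAG effect between liver and the other tissues could be measured for Cyp27a1, in a limma fit to all 12 arrays that takes the tissues as independent. The other 8 genes entered that fit through liver alone, with their values elsewhere at or near the floor of 30, so it says nothing of a difference between tissues for them. For Cyp27a1 the UAG effect in liver minus that in WAT was -0.39 on the log2 scale (standard error 0.26), and minus that in muscle it was -0.37 (0.26). Neither was called (unadjusted p = 0.157 and 0.171, adjusted p = 1 in each, limma), and of the 26530 probe sets 0% were called, while 4.86% and 2.81% had an unadjusted p under 0.05.

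The other enzymes of bile acid synthesis were examined as a list of 16. Of these, 14 were called higher in liver than in WAT and 15 higher than in muscle (limma). Over all probe sets the shares were 17.3% and 18.7%. The median log2 differences of the list were 4.14 and 4.43, beside 0.029 and 0.020 over all probe sets. After UAG in liver, limma called none of the 16 and 1 had an unadjusted p under 0.05, beside 3.65% of all probe sets tested. The log2 difference was positive for 14 and negative for 2, with a median of 0.063, beside 0.0011 over all probe sets tested. Cyp7b1, the oxysterol hydroxylase of the alternative pathway, which like Slco1a1 has a higher level in male than in female mouse liver, had 1739.5 and 984 on saline and 668 and 889.6 on UAG arrays. Its UAG arrays lay below its saline arrays, as for 15.2% of the liver probe sets tested. The ratio was 0.572 and the log2 difference -0.76 (standard error 0.25, unadjusted p = 0.0141, adjusted p = 0.9998, limma). As for Slco1a1, saline replicate 1 was the highest of the 4, but the lowest array was UAG replicate 1 for Cyp7b1 and UAG replicate 2 for Slco1a1. The next largest differences of the list were 0.23 for Akr1d1, the steroid reductase that follows Cyp8b1, -0.23 for Cyp46a1, a cholesterol hydroxylase of neurons, and 0.22 for Ch25h, which makes an oxysterol.

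Of 21 further transporters and related genes, 19 were measured and 15 tested after UAG in liver. None was called by limma, and 1 had an unadjusted p under 0.05, beside 3.65% of all probe sets tested. Differences were positive for 5 and negative for 10, with a median of -0.099. The largest were Slc51a, a subunit of the basolateral bile acid exporter, at -0.40 (standard error 0.32) with 37.8 and 44.0 on saline and 20.1 and 31.8 on UAG arrays, and Ephx1, the microsomal epoxide hydrolase, at -0.33 (0.14) with 2906 and 2956 on saline and 2617 and 2091.5 on UAG arrays. They were followed by Atp8b1, a lipid flippase of the canalicular membrane, at -0.28 (0.14), and Abcb1a, a drug exporter, at 0.22 (0.21). Slc51a was near the intensity of 30 on all 4 arrays. Of the 19 genes, 12 were called higher in liver than in WAT and 12 higher than in muscle, beside 17.3% and 18.7% of all probe sets (limma). Against WAT 3 were called lower in liver and against muscle 2, beside 20.4% and 20.9%. These were Abcb1b, a drug exporter, at log2 differences of -4.01 and -3.75, Abcc4, an exporter of organic anions, at -1.09 and -1.77, and, against WAT, Abcb1a, at -0.48. Abcb1b lay below 30 on every liver array, at 4.57 to 26.7, so the size of its differences rests on values under that threshold. Among the genes called higher in liver, Slc10a2 had liver values of 28.5 to 53.2 and Slc51a of 20.1 to 44.0. All their values elsewhere lay below 30, so their calls also rest on values under that threshold. Abcb1b, Abcc4 and Slc10a2 were named after their values were seen.

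Of 20 regulators of bile acid genes, 18 were measured and 16 tested after UAG in liver. None was called by limma, and 2 had an unadjusted p under 0.05, beside 3.65% of all probe sets tested. On each side of 0 there were 8, with a median of -0.0052. Foxa2, a transcription factor of liver development and bile acid handling, had 386 and 333 on saline and 546 and 417 on UAG arrays and a log2 difference of 0.41 (standard error 0.16). Nr1i2, the xenobiotic receptor PXR, had 408 and 456 on saline and 599 and 501 on UAG arrays and a difference of 0.35 (0.14). Both had UAG arrays above saline arrays, as for 15.3% of the liver probe sets tested. Klb, the co-receptor of the intestinal hormone that represses Cyp7a1, was at -0.27 (0.16), and Dbp, a clock output factor that acts on Cyp7a1, at -0.24 (0.21), each with groups that overlapped. Nr1h4, the bile acid receptor FXR, was at -0.064 (0.11), and Nr0b2, the repressor SHP that FXR induces, at -0.17 (0.14). The last 2 lie outside the rule for named genes and were chosen after their values were seen.

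**Figure D4:**
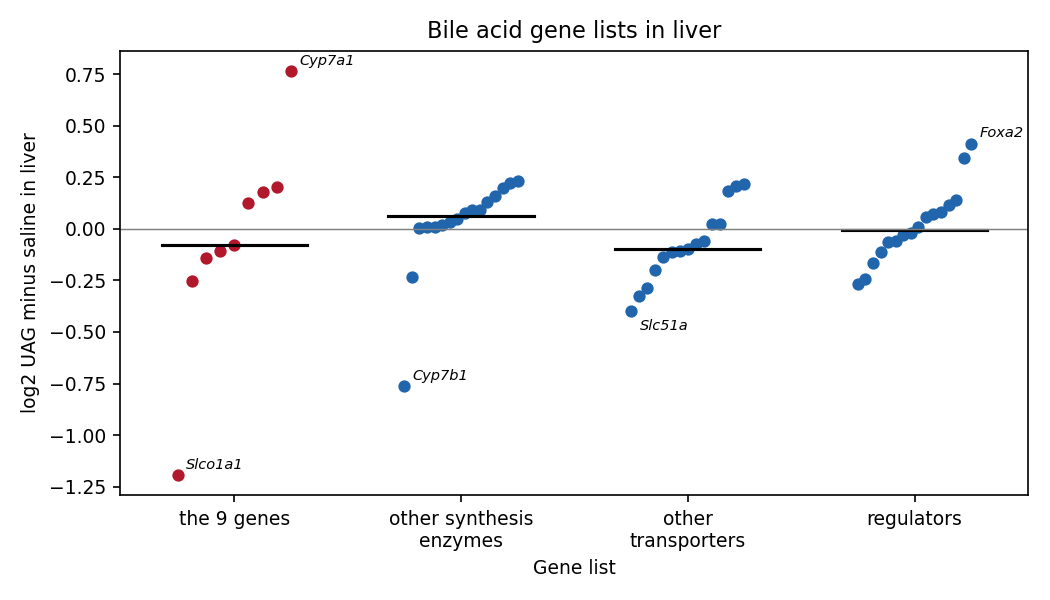
Log2 difference, UAG minus saline, in liver for the 9 genes (red) and for the tested genes of 3 related lists (blue), each point the lead probe set of a gene and each black line the median of a list. Slco1a1 at -1.19, Cyp7b1 at -0.76 and Cyp7a1 at 0.77 stand farthest from 0.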

How the data were processed

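RNA was hybridized to Affymetrix whole-genome mouse arrays. The deposited log2 values are intensities, and the methods name quantile normalization on one-time present calls. Their quantiles were not all equal, since equalising them again within liver took the Slc10a1 difference from 0.18 to 0.032. The submitters' processing field lists MAS5, with neither its role nor its version given. No source states the base of the log, and it was read as 2, which puts the highest intensity at 25720. The 64 control probe sets were left out. Of 45037 others, 34945 name 1 gene, 932 several and 9160 none in the platform annotation.

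Values were returned to intensity, and the ratio of the UAG to the saline mean was taken as in the methods. The methods apply an intensity threshold of 30 without saying how, and here values below 30 were set to 30. limma 3.58.1 in R 4.3.3, with an intensity trend, was fitted to the 4 arrays of a tissue, keeping probe sets whose mean intensity reached 30. Tissues, and differences of the UAG effect, were compared in a fit to all 12 arrays, the former without floor or filter. A fold written as "at least" is against 30. Benjamini-Hochberg adjustment covered all probe sets tested. A gene stands for its lead probe set, the highest in mean log2 value over the 12 arrays, unless stated. The scripts were tested on simulated data. No array was identical to another, and array number limits the precision.

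The 9 genes, 3 further lists, markers and motifs were chosen with earlier results of these data known. Named from each list were genes past limma or, where none was, the 4 with the largest absolute difference in liver.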

Additional observations from a re-analysis of the deposited data

How the results depend on the processing

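All 9 genes were called higher in liver than in WAT and in muscle under each of the 18 alternatives of each comparison. The count of genes changed at least 2-fold in liver was 1 under 8 other settings, 1 of them (the probe set brightest in liver) chosen after seeing the data, and 0 to 2 with single arrays left out, where Slco1a1 was replaced by Cyp7a1 without saline replicate 1. In the limma fits the lone array left in a group was assumed to vary as the other groups do. Without the floor it was 1 in WAT and 1 in muscle, both Slco1a1 at intensities below 30. For limma after UAG, Cyp27a1 alone passed the filter in WAT and muscle, and it was not called there with all arrays kept. The other genes were at or near the floor of 30 in these tissues, so that limma did not call them says nothing of them. In liver, limma with all arrays kept called 0 of the 9 except with the replicate block, where it called 1, Slco1a1, at -1.19 (adjusted p = 0.00111). The range of its adjusted p over the alternatives was 0.00111 to 1. The labels give saline and UAG mice the same numbers without pairing them. Deviations of same-numbered saline and UAG arrays correlated at -0.028 in liver, -0.18 in WAT and 0.18 in muscle, so the numbers were not taken as pairs. With the block 17 liver probe sets were called in place of 1, and 22 in WAT and 0 in muscle in place of 0. Without the block, all arrays in a single fit gave 14 in WAT and 3 in liver, and no filter gave 9 in WAT, 11 in muscle and 0 in liver. The liver count was also 0 without the intensity trend, at a mean intensity of at least 100 and with any single array left out. With the mean of all probe sets the sign turned for Cyp27a1 in WAT (-0.35) and muscle (-0.11), where its second probe set lay below 30, and for Slco1b2 in liver (-0.25). Slco1a4 in liver ranged from -0.36 to 0.20 with single arrays left out. Equalising quantiles again, within liver or over the 12 arrays, took Slc10a1 in liver from 0.18 to 0.032 or 0.027. It took Slco1b2 from 0.20 to 0.12 or 0.11 and Cyp7a1 from 0.77 to 0.70 or 0.67, while Slco1a1 stayed at -1.19. The causes of these changes were not tested.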

Other observations

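In WAT, limma called none of the genes of the related lists after UAG. Slc27a2, a very long chain acyl-CoA synthetase that also activates bile acid precursors, had 242 and 34.7 on saline and 53.9 and 15.6 on UAG arrays, a ratio of 0.303 with the floor of 30, and Ppargc1a, a coactivator of mitochondrial genes, had 120 and 46.7 on saline and 32.8 and 50.2 on UAG arrays, a ratio of 0.496. Both were highest on saline replicate 1, where the summed brown fat markers Ucp1, Cidea and Cox8b were at 17682, beside 2508 on saline replicate 2 and 3633 and 1745 on the UAG arrays. Cyp7b1 was highest on saline replicate 2, at 209, beside 40.4 on saline replicate 1, with smooth muscle markers at 20884 and 4156 on the same arrays. The part of these other tissues in the differences was not tested. Of the other transporters, 9 of 11 tested in WAT had a positive difference, with a median of 0.34, and 6 had both UAG arrays above both saline arrays, beside 22.0% of the WAT probe sets tested. Examples were Ephx1, at 748 and 733 on saline and 1108 and 1044 on UAG arrays, and Slco2b1, an anion carrier, at 504 and 479 on saline and 704 and 689 on UAG arrays. These genes were named after their values were seen.

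The genes outside the lists whose pattern over the 12 arrays was most like the mean log2 value of the 9 were Ugt2a3, a glucuronosyltransferase (Pearson r = 0.9992), Serpina11 (0.9981), Haao, an enzyme of tryptophan breakdown (0.9981), Pglyrp2 (0.9978) and Creb3l3, a membrane-bound transcription factor of hepatocytes (0.9978). The arrays fall into liver and other tissues, and these values describe that split.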
